A study of Bos taurus with 22 samples.

Results

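In the backfat of 6 Charolais (CHAR) steers, 7 of 8 listed smooth muscle and vessel genes had a higher level in the feed-efficient animals. Of 6 listed matrix and protease genes, 5 had a lower level in those animals. The study lists these genes for this breed, while their grouping by role was made here, with earlier results of these data known. The quasi-likelihood test of edgeR called 0 genes between the groups over all genes tested, while edgeR's exact test called 39 or, with estimateDisp dispersions, 20, its likelihood ratio test 21 and DESeq2 23. The steers were chosen by breed label, and 6 of the 22 steers of the study were CHAR. The 3 efficient steers (L-RFI: F33, F46 and F47) had a residual feed intake adjusted for fat (RFIfat) of -1.00, -1.03 and -0.96 kg. The 3 inefficient steers (H-RFI: F36, F43 and F48) had 0.69, 1.10 and 0.72 kg. RFIfat is the feed eaten beyond that predicted from growth, body weight and fatness, so a negative value marks an efficient steer. All steers were raised on 1 ranch, were fed a barley-based finishing diet in a feedlot, and gave subcutaneous fat shortly after slaughter, with no treatment in either group. The Angus (ANG, 8 steers) and Kinsella Composite (KC, 8 steers, a crossbred herd) groups served here only for comparison. The genes described are the 39 that the study lists for CHAR, 17 higher and 22 lower in L-RFI. The study chose them on these same 6 steers, so their direction, size and separation are not independent evidence of a difference.

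Subcutaneous adipose tissue stores triglyceride in adipocytes, but a frozen piece of it also holds capillaries, small arteries with a coat of smooth muscle, nerve fibres wrapped by Schwann cells, fibroblasts that lay down collagen and immune cells. RNA extracted from the whole piece mixes all of them. Cholesterol leaves adipocytes through the transporter ABCA1, and the matrix around them is cut by proteases of the ADAMTS and plasminogen systems. The labels name the cell type as adipocytes. Of the 16 adipocyte genes listed for a check, 2 had an identifier that could be read. CIDEA, a lipid droplet protein, was at 19.4 to 64.0 TMM CPM (reads on the gene scaled to the TMM-adjusted size of the library) and ACVR1C, a receptor that restrains lipolysis, at 15.2 to 32.8 CPM over the 6 steers. The striated muscle gene TTN was also present in every steer, at 59.9 to 152 CPM. No sequence is shown, because the results are counts of whole genes.

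Between 8983641 and 12188113 reads were counted on genes in the 6 steers, and the floor of 3 counts lay at 0.246 to 0.334 CPM, which covers counting error only. On the first axis of a principal component analysis (24.6% of the variance) steer F48 stood apart at -40.5, with the other steers at -1.41 to 24.1. The 2 RFI groups did not separate on this axis. The labels give no batch, and each steer is a separate animal. Per the paper, the steers of the study came from different birth years. The year of each CHAR steer is not known here, so a difference between years cannot be told apart.

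The quasi-likelihood test of edgeR compared L-RFI with H-RFI over 13737 genes, which had to exceed 1 CPM in 3 or more of the 6 steers. It called 0 genes (0%) at a false discovery rate (FDR) below 0.1 and an absolute log2 fold change (log2FC, L-RFI minus H-RFI) of at least 1. The smallest FDR was 0.788. At an unadjusted p below 0.05 it gave 333 genes higher in L-RFI (2.42%) and 304 lower (2.21%). The exact test of edgeR called 17 genes higher (0.124%) and 22 lower (0.16%), all of them the listed ones. All 39 genes passed the low-count filter, with an unadjusted p of 5.74e-05 to 0.0277 and an FDR of 0.788 to 0.947 in the quasi-likelihood test. Hence "higher" and "lower" below describe these 6 steers and are no calls. Of the 17 genes listed as higher, 15 had groups that did not overlap, where 5.55% of all genes tested were separated in that direction. Of the 22 listed as lower, 19 did not overlap, against 4.72% of all genes. An exact permutation test gives p = 0.1 for each of these 34 genes, the smallest that 3 steers against 3 allow (2-sided). In what follows, the values of L-RFI steers come in the order F33, F46 and F47, and those of H-RFI steers in the order F36, F43 and F48.

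Smooth muscle and vessel genes made up 8 of the 39, with 7 higher and 1 lower in L-RFI steers, and 7 of the 8 did not overlap. KCNMB1 (ENSBTAG00000002985), the regulatory subunit of the calcium-activated potassium channel of smooth muscle, was at 20.6, 21.9 and 18.9 CPM in L-RFI and at 7.10, 9.69 and 7.29 CPM in H-RFI steers. Every L-RFI steer had nearly the same level and lay far above every H-RFI steer. The mean was 20.5 ± 1.52 against 8.03 ± 1.44 CPM (SD, n = 3 each), a log2FC of 1.35 (SE 0.17). This was the smallest p of all genes tested. MRVI1 (ENSBTAG00000007129), a target of cGMP-dependent kinase that lowers calcium release in smooth muscle, was at 75.4, 102 and 61.5 CPM against 31.2, 40.9 and 45.8 CPM. Its groups were separated, with a log2FC of 1.03 (SE 0.22).

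The contractile proteins spread more widely among the L-RFI steers than KCNMB1 did. ACTA2 (ENSBTAG00000014614), the smooth muscle alpha actin, was at 356, 207 and 159 CPM in L-RFI and at 63.1, 82.1 and 117 CPM in H-RFI steers. ACTG2 (ENSBTAG00000015441), the gamma actin of visceral smooth muscle, was at 33.6, 12.6 and 11.7 CPM against 2.37, 4.68 and 7.63 CPM. TPM2 (ENSBTAG00000011424), beta tropomyosin, was at 124, 97.0 and 56.3 CPM against 30.2, 44.6 and 48.3 CPM. In these 3 genes every L-RFI steer was above every H-RFI steer, F33 was the highest and F47 the lowest of its group, and F48 was the highest H-RFI steer. DES (ENSBTAG00000005353), the intermediate filament of muscle cells, was at 326, 113 and 47.6 CPM against 22.7, 45.7 and 62.0 CPM. Here F47 fell within the H-RFI range. The log2FC was 1.46 (SE 0.33) for ACTA2, 2.00 (SE 0.53) for ACTG2, 1.18 (SE 0.30) for TPM2 and 1.91 (SE 0.67) for DES. Without F33 these values were between 0.89 (DES) and 1.32 (ACTG2). ACTA2 and ACTG2 code for nearly identical proteins, and reads that fit both were not separable from the counts. Smooth muscle markers are also the markers of the arterial coat. Fewer cells of a type and less RNA per cell cannot be told apart in bulk tissue.

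SCUBE1 (ENSBTAG00000011275), a secreted protein of endothelium and platelets, was low, at 2.85, 4.29 and 1.57 CPM against 0.761, 0.435 and 0.449 CPM. The L-RFI steers were all above the H-RFI steers, at 14 to 48 counts against 4 to 9. CA4 (ENSBTAG00000017969), the carbonic anhydrase on the surface of capillary endothelium, ran the other way. It was at 6.06, 4.11 and 6.85 CPM in L-RFI and at 15.9, 11.97 and 16.1 CPM in H-RFI steers, a log2FC of -1.38 (SE 0.24) with no overlap. CA4 is the only 1 of the 18 listed endothelial genes that could be read. Summed over the 8 genes, the level was 945, 563 and 363 CPM in L-RFI and 173, 240.1 and 304 CPM in H-RFI steers.

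Of the nerve genes, 3 are described. PRX (ENSBTAG00000017333), periaxin of Schwann cells, was at 31.6, 5.27 and 1.57 CPM in L-RFI and at 1.18, 1.41 and 1.35 CPM in H-RFI steers. F33 stood far above F46, which stood above F47, and the 3 H-RFI steers were close together. F47 had 14 counts and the H-RFI steers had 12 to 14, so the separation of F47 rests on the scaling. The log2FC of 3.29 (SE 1.02) was 1.39 without F33, and 1.41 with both F33 and F48 left out.

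NFASC (ENSBTAG00000045895), an adhesion protein at the nodes of myelinated axons, was more even, at 11.4, 12.5 and 6.06 CPM against 4.90, 2.50 and 4.04 CPM. CALN1 (ENSBTAG00000043969), a calcium-binding protein of neurons, was lower in L-RFI at 1.01, 1.70 and 1.12 CPM against 5.83, 3.16 and 4.82 CPM. Both were separated, with a log2FC of 1.38 (SE 0.35) and -1.84 (SE 0.37). PRX and NFASC stand on a list of 20 myelin genes, most of which were not analysed here.

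**Figure D1:**
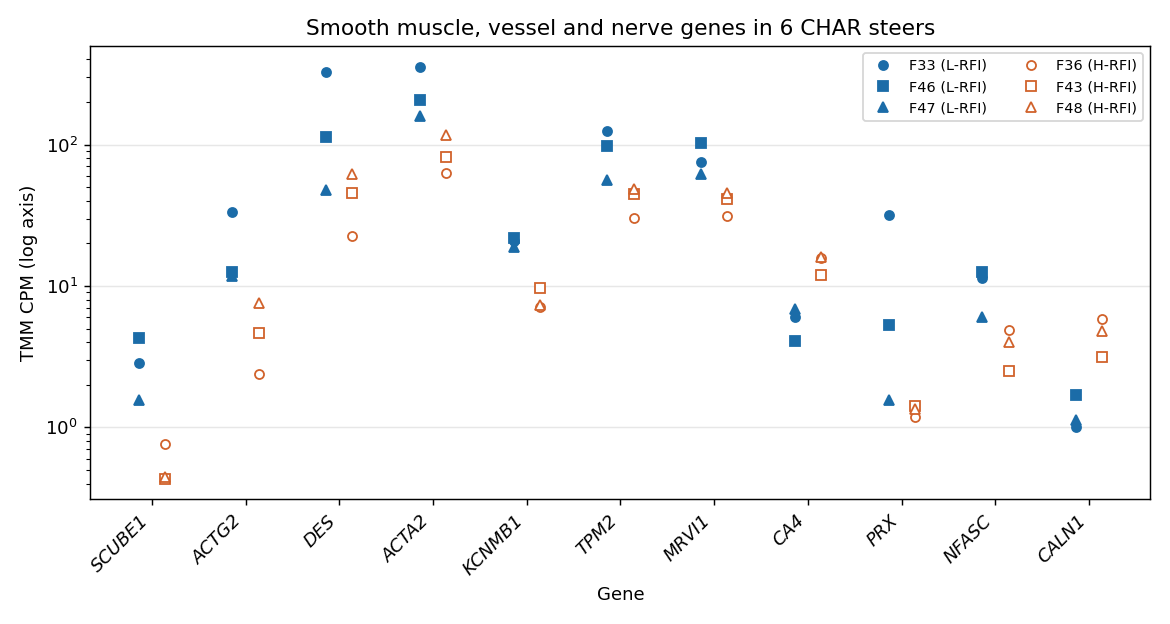
TMM CPM (log axis) of 11 smooth muscle, vessel and nerve genes in each CHAR steer, filled symbols for L-RFI and open symbols for H-RFI. KCNMB1 lay at 18.9 to 21.9 CPM in L-RFI and 7.10 to 9.69 CPM in H-RFI steers, while PRX ran from 1.57 to 31.6 CPM within L-RFI.

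Lipid handling genes numbered 2. ABCA1 (ENSBTAG00000020661), which passes cholesterol and phospholipid to apolipoprotein A-I, was at 371, 345 and 285 CPM in L-RFI and at 191, 178 and 123 CPM in H-RFI steers. All L-RFI steers were above all H-RFI steers, at 334 ± 44.0 against 164 ± 35.95 CPM (SD, n = 3 each), a log2FC of 1.03 (SE 0.19). With single steers left out it was 0.86 to 1.15, so the limit of 1 was missed in some fits. SMPD3 (ENSBTAG00000009639), a neutral sphingomyelinase that makes ceramide, was at 8.54, 10.01 and 4.60 CPM against 4.74, 29.7 and 192 CPM. F48 alone carried most of the H-RFI level, and F36 fell among the L-RFI steers. Without F48 the log2FC was -1.13 in place of -3.27 (SE 1.13).

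Matrix genes and proteases of the matrix were mostly lower in L-RFI, with 5 of 6 lower and 1 higher, and 5 of the 6 did not overlap. THBS2 (ENSBTAG00000018810), a matricellular thrombospondin that limits vessel growth, was at 69.0, 48.7 and 41.7 CPM in L-RFI and at 104, 119 and 109 CPM in H-RFI steers. The H-RFI steers were close together and far above the others, at a log2FC of -1.06 (SE 0.19). VWA2 (ENSBTAG00000006860), a protein of basement membranes, was at 5.97, 4.11 and 6.18 CPM against 14.3, 10.3 and 13.1 CPM, a log2FC of -1.22 (SE 0.23).

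ADAMTS4 (ENSBTAG00000013210), which cleaves aggrecan and versican, was at 17.9, 17.2 and 19.7 CPM against 62.1, 26.0 and 46.1 CPM. The L-RFI steers varied little and the H-RFI steers varied more than 2-fold among themselves, with a log2FC of -1.30 (SE 0.29). PLAU (ENSBTAG00000005947), the urokinase that activates plasminogen, was at 19.8, 19.9 and 25.04 CPM against 34.6, 42.99 and 108 CPM. F48 was the highest, and the log2FC of -1.51 (SE 0.41) became -0.84 without it. PRG4 (ENSBTAG00000011932), the lubricating proteoglycan lubricin, was at 1.10, 0.536 and 0.561 CPM against 3.89, 1.85 and 6.17 CPM, from 5 to 12 counts in L-RFI and 17 to 55 in H-RFI steers. COL4A5 (ENSBTAG00000014575), a type IV collagen chain of basement membranes, was the gene higher in L-RFI, at 83.7, 90.3 and 37.6 CPM against 20.4, 26.2 and 40.8 CPM. F47 fell below F48, so its groups overlapped.

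Blood and immune cell genes split into 2 higher and 4 lower in L-RFI. SIRPB1 (ENSBTAG00000039520), a receptor of myeloid cells, was at 21.1, 24.8 and 22.7 CPM against 5.92, 15.3 and 3.25 CPM. ART4 (ENSBTAG00000008352), the Dombrock blood group carrier of red cells, was at 2.48, 5.36 and 4.72 CPM against 1.52, 1.52 and 0.336 CPM. In both, all L-RFI steers were the higher ones and F48 was the lowest. The log2FC of SIRPB1 was 1.49 (SE 0.47), and 2.29 without F43.

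STX11 (ENSBTAG00000011236), which serves granule release in cytotoxic lymphocytes, was at 2.66, 1.07 and 1.57 CPM against 7.02, 5.55 and 5.05 CPM, with clear separation at a log2FC of -1.73 (SE 0.37). CAMP (ENSBTAG00000020076), a cathelicidin of neutrophil granules, was at 3.85, 6.08 and 19.5 CPM against 20.2, 31.6 and 46.1 CPM, where F47 came close to F36. IGHM (ENSBTAG00000001219), the constant region of the IgM heavy chain, was at 2.75, 6.43 and 5.05 CPM against 5.41, 15.5 and 55.2 CPM, with overlap and its highest level in F48. The log2FC was -1.75 (SE 0.57) for CAMP and -2.40 (SE 0.79) for IGHM, where IGHM had -1.12 without F48 and CAMP had -2.71 without F47 and -1.36 without F33. ASGR1 (ENSBTAG00000012071), a subunit of the asialoglycoprotein receptor best known from hepatocytes, was at 4.22, 7.77 and 3.48 CPM against 20.9, 17.1 and 9.42 CPM.

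**Figure D2:**
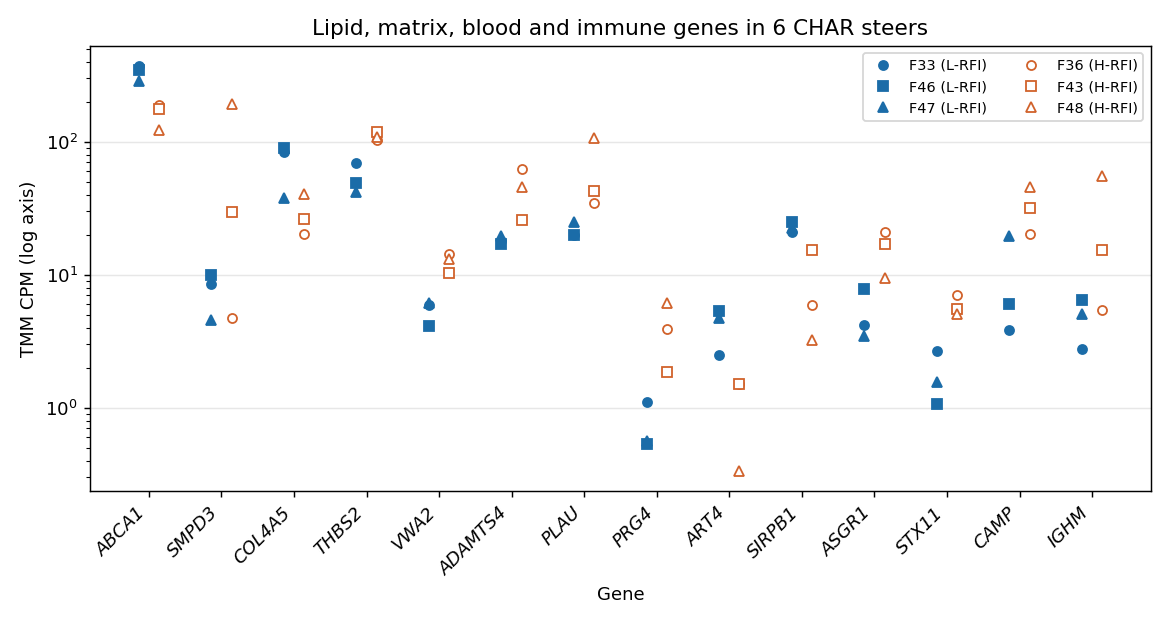
TMM CPM (log axis) of the 14 lipid, matrix, blood and immune genes in each CHAR steer, filled symbols for L-RFI and open symbols for H-RFI. THBS2 lay at 104 to 119 CPM in H-RFI and 41.7 to 69.0 CPM in L-RFI steers, while SMPD3 reached 192 CPM in F48 and IGHM 55.2 CPM in the same steer.

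The signalling genes numbered 4, were lower in L-RFI steers and did not overlap. FGFR2 (ENSBTAG00000014064), a receptor of fibroblast growth factors, was at 10.6, 8.58 and 8.65 CPM against 29.9, 13.0 and 18.7 CPM. NKD2 (ENSBTAG00000034435), an inhibitor of WNT signalling, was at 24.7, 29.0 and 20.8 CPM against 68.5, 32.1 and 49.3 CPM. In both, F36 was the highest of all steers and F43 came closest to the L-RFI steers. PIM1, a serine/threonine kinase induced by cytokines, was at 5.99 to 8.26 CPM against 12.3 to 34.1 CPM, with F48 highest. ASB4, a substrate adaptor of a ubiquitin ligase, was at 0.449 to 1.19 CPM against 2.28 to 4.46 CPM. The log2FC of the group ran from -1.01 for NKD2 to -2.09 for ASB4, and that of PIM1 was -1.46, or -0.90 without F48.

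The other 9 genes had mixed roles. HOGA1 (ENSBTAG00000012721), a mitochondrial enzyme of hydroxyproline breakdown, was at 10.1, 8.94 and 14.6 CPM against 3.97, 3.59 and 4.49 CPM, a log2FC of 1.47 (SE 0.25). FAM13C (ENSBTAG00000017540) was at 33.2, 41.3 and 45.1 CPM against 13.1, 19.9 and 17.9 CPM, a log2FC of 1.23 (SE 0.19). Neither gene had overlap between the groups. HOGA1 varied little among H-RFI steers (SD 0.449 CPM) and more among L-RFI steers (SD 2.99 CPM). ARMC4, a protein of motile cilia, was near the limit of detection, with 11 to 23 counts in L-RFI and 3 in each H-RFI steer.

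COX8B (ENSBTAG00000002046), a cytochrome c oxidase subunit of muscle and thermogenic fat, was lower in L-RFI, at 5.14, 7.86 and 4.94 CPM against 16.8, 10.6 and 17.8 CPM. LOC100337053 (ENSBTAG00000045751) was at 6.42, 3.49 and 3.37 CPM against 29.7, 22.4 and 14.6 CPM, a log2FC of -2.32 (SE 0.34) and the second smallest p of all genes. RefSeq places 10 other genes over it on the newer assembly ARS-UCD2.0, so its counts are uncertain. ATG10 (ENSBTAG00000047947), an enzyme that joins autophagy proteins, was at 5.32, 5.99 and 5.17 CPM against 4.48, 10.3 and 124 CPM. All of the excess was in F43 and F48, and without F48 the log2FC of -3.06 (SE 1.13) shrank to -0.42. RefSeq also places the ribosomal protein gene RPS23 over it. LOC616942 was at 9.45 to 13.4 CPM against 17.4 to 34.8 CPM, and ENSBTAG00000003408 at 1.28 to 3.75 CPM against 4.99 to 34.9 CPM, the highest value of both being in F48. Their log2FC was -1.06 and -2.48, or -0.70 and -1.07 without F48.

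The microRNA gene MIR2887-2 (ENSBTAG00000047501) had 39, 0 and 0 counts in L-RFI and 394, 761 and 2196 counts in H-RFI steers. At 3.58 CPM in F33 and 33.3, 82.8 and 246 CPM in H-RFI steers, the groups did not overlap. The library kit reads long RNA, so these reads are counts on the gene's interval and not a measure of the mature microRNA. F46 and F47 were at 0, where the floor of 3 counts allows up to 0.278 and 0.334 CPM. Its fitted log2FC rests on F33 alone in L-RFI and is given no size here. DESeq2 gave an adjusted p of 0.53 for it, and the exact test of edgeR an adjusted p of 0.00019. In ANG its log2FC was -0.09 (SE 1.74). There MIR2887-2 had reads in H-RFI steer F20 and L-RFI steers F18, F23 and F24, and none in F21, F25, F28 and F32. In KC it had reads in H-RFI steers F1, F8 and F9, and none in F7 or any L-RFI steer. It was not tested in KC.

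Which steer was extreme differed between the 2 directions. Among the 17 genes higher in L-RFI, F46 was the highest L-RFI steer in 8, F33 in 7 and F47 in 2, and F47 was the lowest in 13. Among the 22 lower genes, F48 was the highest H-RFI steer in 12, F36 in 8 and F43 in 2. With any 1 of the steers left out, the log2FC of the 39 genes kept its sign in every fit, and in 27 it stayed at 1 or more in size. SCUBE1 and ARMC4, for example, passed the low-count filter in 3 of the 6 fits. With F33 and F48 both left out, a choice made after the values were seen, all 39 kept their sign and 32 kept a size of at least 1. The quasi-likelihood test called 0 genes in that subset. The exact test called 7 of the 39 with any single steer left out, namely KCNMB1, ACTA2, HOGA1, FAM13C, CA4, LOC100337053 and MIR2887-2. The 39 are the genes this test called on all 6 steers, and its totals over all genes in those fits are not reported here. Without F33 and F48 it called 69 genes, and only 15 of them were among the 39. Most of its calls in that subset were therefore genes outside the list.

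**Figure D3:**
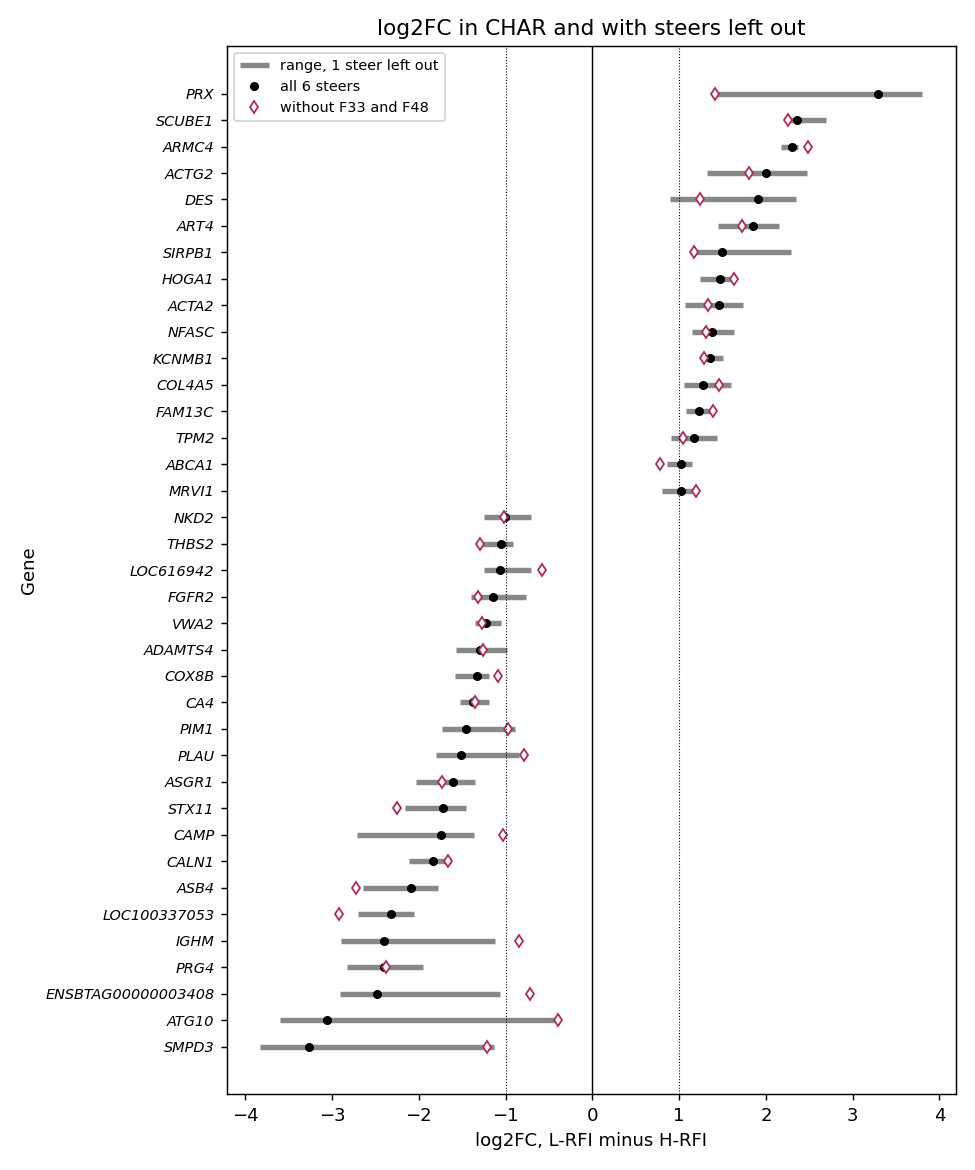
The log2FC (L-RFI minus H-RFI) of 37 genes in CHAR with all 6 steers (points), its range with 1 steer left out (bars) and its value without F33 and F48 (diamonds). Dotted lines mark a log2FC of -1 and 1, and MIR2887-2 is not drawn. KCNMB1 stayed at 1.27 to 1.504, while SMPD3 ran from -3.83 to -1.13 and ATG10 from -3.60 to -0.42.

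The same genes were then read in the ANG and KC steers, which had no part in the choice of the CHAR list. In ANG, 19 of the 39 genes had a log2FC of the same sign as in CHAR, where 48.8% of all genes tested in both breeds had. In KC, 20 of 37 tested genes had the same sign, against 59.2% of all genes. An unadjusted p below 0.05 in the quasi-likelihood test within the breed was found for 4 of 39 genes in ANG (5.04% of all genes) and 5 of 37 in KC (18.2% of all genes). The sign was that of CHAR in all 4 in ANG and in 4 of the 5 in KC. The exception was ASGR1, with a log2FC of 1.21 (SE 0.54) in KC against -1.61 in CHAR. In both other breeds 11 genes had the sign they had in CHAR, among them PRX, NFASC, THBS2, PLAU, PRG4 and SMPD3. Some of these values were near 0, such as PRG4 in KC (-0.06, SE 0.61) and NFASC in ANG (0.16, SE 0.33) and KC (0.15, SE 0.27). SMPD3 had a log2FC of -2.41 (SE 0.76) in ANG and -1.37 (SE 0.56) in KC. The study reports SMPD3 as the only gene lower in L-RFI that all of its breeds share.

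Smooth muscle and vessel genes had the CHAR sign in 2 of 8 in ANG and in 1 of 8 in KC. Over all genes the shares were 48.8% in ANG and 59.2% in KC. ACTA2 had a log2FC of -0.05 (SE 0.26) in ANG and -0.43 (SE 0.26) in KC. For TPM2 it was -0.21 (SE 0.17) in ANG and 0.03 (SE 0.25) in KC. Matrix genes had the CHAR sign in 3 of 6 in ANG and in 5 of 6 in KC, beside the same shares of all genes. Some of the KC values were near 0, such as COL4A5 (0.001, SE 0.21) and PRG4 (-0.06, SE 0.61). PLAU was at -1.28 (SE 0.40) in ANG and -0.90 (SE 0.57) in KC. The study also names PLAU among its genes for ANG. In ANG its levels after scaling over all 22 steers were 40.3, 27.96, 69.3 and 104.7 CPM in H-RFI and 26.5, 15.4, 21.4 and 36.4 CPM in L-RFI steers. In ANG 1 L-RFI steer lay above 1 H-RFI steer, and the groups were otherwise apart. The KC groups overlapped more, at 94.4, 149.7, 52.0 and 40.0 CPM in H-RFI and 19.9, 13.6, 76.2 and 71.7 CPM in L-RFI steers.

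FAM13C had the smallest p of the 37 genes in KC, with a log2FC of 0.90 (SE 0.26, unadjusted p = 0.00592 from the quasi-likelihood test of edgeR over all genes). It was at 29.0, 17.1, 15.8 and 22.5 CPM in KC H-RFI and at 26.0, 30.0, 49.1 and 52.6 CPM in KC L-RFI steers, with overlap in 1 steer. In ANG it had a log2FC of -0.18 (SE 0.35).

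**Figure D4:**
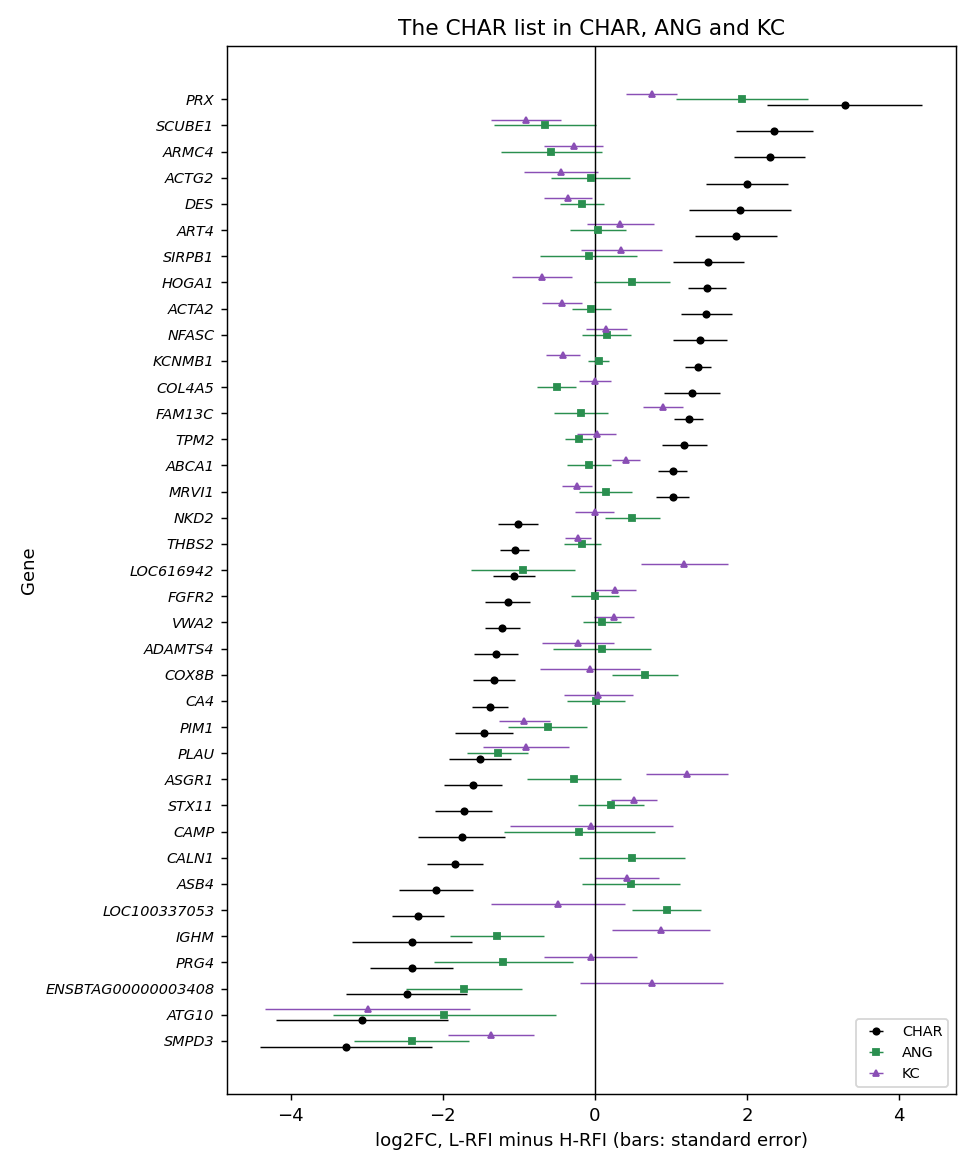
The log2FC (L-RFI minus H-RFI) with its standard error for 37 genes of the CHAR list in CHAR (circles), ANG (squares) and KC (triangles), each from a fit within the breed. MIR2887-2 is not drawn and CALN1 was not tested in KC. ACTA2 lay at 1.46 in CHAR, -0.05 in ANG and -0.43 in KC, while SMPD3 was below 0 in each breed.

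Whether the RFI effect differed between breeds was tested over all 22 steers as the log2FC of CHAR minus the mean of those of ANG and KC. Of 14048 genes, 1 passed an FDR of 0.1 (0.00712%), and it was KCNMB1, at a difference of 1.54 (SE 0.23, FDR = 0.0272 from the quasi-likelihood test of edgeR). Since the study had picked KCNMB1 for its effect in CHAR, the test is not independent of that choice. The call was kept without F43 or F47 and lost without F33, F36, F46 or F48. After scaling over all steers, KCNMB1 was at 20.02, 21.3 and 18.3 CPM in CHAR L-RFI and at 6.91, 9.42 and 7.09 CPM in CHAR H-RFI steers. The ANG H-RFI steers were at 10.02 ± 0.816 and the ANG L-RFI steers at 10.4 ± 1.13 CPM, while KC H-RFI were at 11.1 ± 1.46 and KC L-RFI at 8.27 ± 2.36 CPM (SD, n = 4 each). The 3 CHAR L-RFI steers were thus above every other steer of the study, the highest of which was at 12.9 CPM. At an unadjusted p below 0.05, 25 of the 39 genes differed between breeds, where 4.83% of all genes did. That share includes the CHAR contrast on which the list was made, so nothing is read from it. RefSeq places KCNIP1 over KCNMB1, and reads shared by them are uncertain.

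**Figure D5:**
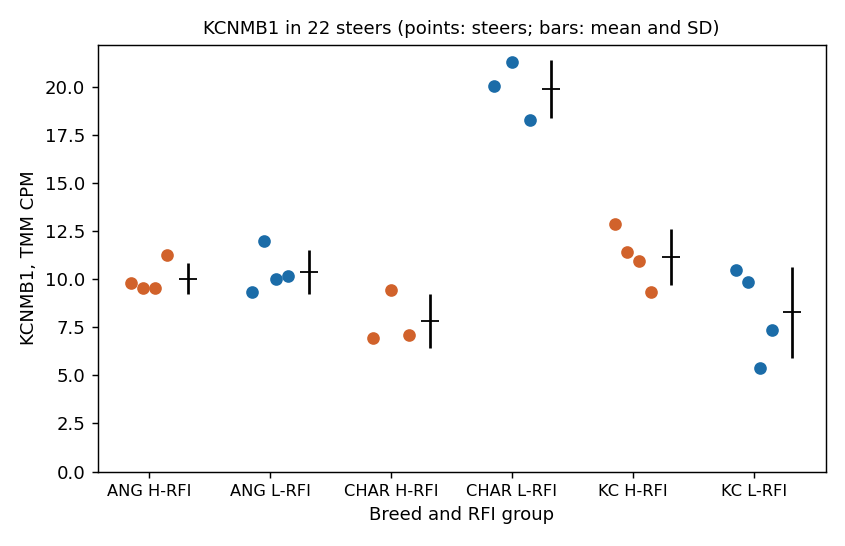
KCNMB1 in TMM CPM, scaled over all 22 steers, by breed and RFI group (points: steers, bars: mean and SD). The CHAR L-RFI steers sit at 18.3 to 21.3 CPM and the other 19 steers between 5.36 and 12.9 CPM.

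To see whether the smooth muscle genes moved together in animals that had no part in the list, their log2 levels were correlated with those of ACTA2 over the 16 ANG and KC steers, each centred on its breed and RFI group. Of 7 relations computed, chosen after the values in CHAR were seen, 5 were with ACTA2. TPM2 had Pearson's r = 0.883 and Spearman's rho = 0.891 with ACTA2 (permutation p = 4e-05 and 6e-05, adjusted 0.00028 and 0.00042). DES had r = 0.861 and rho = 0.806 (permutation p = 0.00154 and 0.00256, adjusted 0.00539 and 0.00597). ACTG2 had r = 0.821 and rho = 0.812 (permutation p = 0.0029 and 0.00226, adjusted 0.00677 and 0.00597), and MRVI1 r = 0.787 and rho = 0.777 (permutation p = 0.00551 and 0.00386, adjusted 0.00964 and 0.00675). Leaving out the 2 steers most distant from the ACTA2 median left r = 0.858, 0.75, 0.677 and 0.761 for these 4 genes. KCNMB1 had r = 0.205 and rho = 0.224 with ACTA2 (permutation p = 0.52 and 0.488, adjusted 0.52 and 0.57), and r = -0.0604 without the 2 steers. The difference between these correlations was not tested.

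In the same 16 steers, SMPD3 and PLAU had r = 0.513 and rho = 0.468 (permutation p = 0.0666 and 0.1, adjusted 0.0932 and 0.14), with r = 0.334 without 2 steers. SMPD3 and the hyaluronan-binding gene TNFAIP6 had r = 0.384 and rho = 0.0677 (permutation p = 0.356 and 0.84, adjusted 0.416 and 0.84), and r = -0.342 without 2 steers, so the sign of that relation rests on those steers.

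Genes of the same pathways that the study does not list for CHAR were read from lists of markers and pathway members. This was done as far as an identifier could be paired with a symbol. Symbols were known only for genes that the study lists as differing between RFI groups within a breed. The genes read are thus ones it chose for a difference in ANG or KC, and not an unselected sample of their pathways. Of 33 such genes 30 were tested, 14 of them higher and 16 lower in L-RFI, with a median log2FC of -0.14 against -0.00306 over all genes tested. None passed an FDR of 0.1 in the quasi-likelihood test (smallest 0.947). An unadjusted p below 0.05 was found for 1 gene higher and 2 lower in L-RFI, where 2.42% and 2.21% of all genes had it. PDPN, a glycoprotein of lymphatic endothelium and fibroblasts, was at 33.9, 29.3 and 19.3 CPM in L-RFI and 51.9, 36.02 and 73.8 CPM in H-RFI steers. PDPN was the 1 gene of the 30 with no overlap, where 10.3% of all genes had none. The other 2 lymphatic endothelium genes read had a higher mean in L-RFI, with overlap. Their log2FC was 0.94 (SE 0.43) for RELN and 0.39 (SE 0.53) for PROX1. SREBF1, the regulator of fatty acid synthesis, was at 229.5, 308 and 284 CPM against 234, 192 and 134 CPM, and F33 fell below F36. FREM1, a basement membrane protein, was at 5.23, 4.11 and 7.52 CPM against 11.8, 10.6 and 6.17 CPM, with overlap in F48. The 4 sterol synthesis genes read (AACS, LSS, SQLE and TM7SF2) were 2 higher and 2 lower, with a median log2FC of -0.06.

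The hyaluronan genes HAS1, HAS2 and TNFAIP6 had a log2FC below 0 in each case, and their highest level was in F48. TNFAIP6 was at 39.6, 13.3 and 10.6 CPM against 9.64, 36.02 and 192 CPM, and HAS2 was at 16.1, 18.1 and 14.8 CPM against 11.2, 31.0 and 46.4 CPM. Without F48 the log2FC was -0.09 for TNFAIP6 and -0.36 for HAS2. The mast cell gene TPSB2 was at 3.76, 4.65 and 7.64 CPM against 5.41, 6.20 and 28.8 CPM, and F48 was again the highest, with a log2FC of -1.33 that was -0.13 without it. SMPD3, PLAU, IGHM and ATG10 of the CHAR list also had their highest level in F48. The part of the hyaluronan and mast cell genes in the listed differences was not tested.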

How the data were processed

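Per the labels, the libraries were depleted of ribosomal RNA, kept strand and were sequenced from both ends. The authors aligned reads to UMD3.1 with TopHat2 (2.0.9), sorted them with SAMtools (1.1) and counted them per gene with HTSeq (0.6.1). They deposited raw counts for 24616 genes and 5 summary lines, which were left out of library sizes and came to 72.6% to 77.2% of the reads listed per CHAR steer. The strand setting of the counting is not given in the sources used here, so reads of overlapping genes are uncertain. Symbols were those the study pairs with 242 identifiers, in its list of genes that differed between RFI groups within a breed. RefSeq genes of ARS-UCD2.0 were used only to find overlaps (38 of the 39 genes matched, 15 overlapped another gene). Beside the genes named above for it, these include SMPD3 (PRMT7), PRG4 (TPR), FAM13C (PHYHIPL), COX8B (NBAS) and MIR2887-2 (LOC112444681), whose counts are uncertain in the same way.

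L-RFI was compared with H-RFI by the quasi-likelihood test of edgeR 4.0.16 (R 4.3.3) with TMM factors and Benjamini-Hochberg adjustment, within the 6 CHAR steers, and over genes that exceeded 1 CPM in 50% or more of them. The standard error is the unshrunk coefficient divided by the root of F. Breed by RFI interaction used all 22 steers. Permutation tests of single genes used log2(CPM + 0.5), and those of correlations used 100000 resamples within groups. Tests were checked on simulated counts. The alternatives were DESeq2 1.42.0, edgeR's exact and likelihood ratio tests, RLE factors, other filters, RFIfat as a regressor, a fit of all 22 steers and leaving out single steers.

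The rule for named genes was the study's CHAR list, the 5 genes with a symbol and the smallest p in each direction (KCNMB1, FAM13C, HOGA1, ABCA1 and ARMC4 higher, LOC100337053, CA4, THBS2, MIR2887-2 and VWA2 lower, all of them on that list), and up to 4 members of each pathway list. The members and lists were chosen with earlier results of these data known. Most members of the pathway lists, and all of those of T cells, pericytes, mesothelium and ribosomal proteins, were not analysed here. Some tested genes, 1 of the 39 among them, are not reported here. Correlations and figures were made in python 3.11.15 (with scipy 1.17.1, pandas 2.3.3, numpy 2.4.6, matplotlib 3.10.9).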

Additional observations from a re-analysis of the deposited data

Results flagged for a closer look

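The RFI effect on KCNMB1 differed between CHAR and the mean of ANG and KC, by 1.54 on the log2 scale in the interaction test. Among the levels of KCNMB1, PLAU and FAM13C in the ANG and KC groups of 4 steers, 1 of 12 groups held a steer far from the others. The ANG H-RFI steer F32 had 11.2 CPM of KCNMB1, with the other 3 at 9.52 to 9.79 CPM. By chance, about 1 in 20 groups would hold such a steer.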

How the results depend on the processing

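The 0 genes called in CHAR became 39 with edgeR's exact test (common and tagwise dispersions), 20 with its estimateDisp form, 21 with the likelihood ratio test, 23 with DESeq2, 1 with all 22 steers in the fit (KCNMB1) and 69 with the exact test without F33 and F48. With single steers left out the quasi-likelihood test called 0 to 1 genes. The 1 gene, without F47, was ENSBTAG00000009895. RLE factors, total counts, 3 other filters, an FDR of 0.05, no log2FC limit and RFIfat as regressor left the count at 0. The interaction count of 1 was 0 to 5 with single CHAR steers left out, being 5 without F47. The log2FC of the 39 genes reversed in none of the settings that could be fitted. The same-sign counts stayed within 1.5-fold under the alternatives, and the share of separated genes (10.3%) did not move with RLE factors or a pseudocount of 0.1. No paired analysis was possible because each steer has its own number. Depth limited low genes, such as ARMC4, ART4, ASB4, PRG4 and SCUBE1 at 3 to 60 counts per steer.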

Other observations

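ENSBTAG00000009895, which is not among the listed genes and has no symbol here, had 0 reads in the CHAR L-RFI steers F33 and F46, and 68 to 222 reads in each of the other 20 steers of the study. At the depth of F33 and F46 the floor of 3 counts allows up to 0.285 and 0.278 CPM, and the other 20 steers were at 6.48 to 22.1 CPM. The third CHAR L-RFI steer, F47, had 17.8 CPM and the CHAR H-RFI steers had 16.9 to 18.2 CPM. The quasi-likelihood test of edgeR over all 6 CHAR steers gave an FDR of 0.962, and 0.0118 without F47. The gene was chosen after its values were seen.

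Among genes without a symbol, ENSBTAG00000003165 had the third smallest p in CHAR. It was at 118, 141 and 122 CPM in L-RFI and 235, 200.2 and 233 CPM in H-RFI steers, a log2FC of -0.81 (SE 0.13, FDR = 0.818 from edgeR's quasi-likelihood test), with little spread within either group. ENSBTAG00000015450 was at 26.6, 30.0 and 31.8 CPM against 17.2, 18.9 and 17.4 CPM, a log2FC of 0.72 (SE 0.13, FDR = 0.871 in the same test).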
